A study of Homo sapiens with 4 samples.

Results

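The miRNAs described here come from the imprinted DLK1-DIO3 domain of human chromosome 14, a single stretch that holds one of the largest miRNA clusters of the genome. They were chosen by name alone. A row of the deposited table was a member if it carried any arm of 1 of 48 listed hairpin names, and 29 of the 1308 human miRNA entries on the array did, from 24 of these names. The other 24 names, among them miR-127, miR-136, miR-154, miR-376a, miR-381, miR-410 and miR-495, were not analysed here. By name 8 entries were 5p arms, 14 were 3p arms, and 7 carried no arm in the name (miR-134, miR-300, miR-370, miR-494, miR-496, miR-665 and miR-668).

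In this domain the protein-coding genes DLK1, RTL1 and DIO3 are expressed from the paternal chromosome, while the long noncoding RNAs MEG3 and MEG8, a large array of small nucleolar RNAs and the miRNAs are expressed from the maternal one. The miRNAs are read from long precursor transcripts, are abundant in brain and placenta, and are mostly silent in adult liver. Overexpression of the cluster has been described in a subset of hepatocellular carcinomas, and in mice insertions of viral vectors within the domain are linked to liver tumours. The miRNAs antisense to RTL1 pair fully with its transcript and cut it.

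The RNA came from exosomes, the small vesicles cells release, of Hep3B, a human hepatocellular carcinoma line without functional p53. For 2 samples the cells had been kept for 2 days with 10 µM camptothecin, which traps topoisomerase I on DNA. For the 2 controls the labels state no treatment, whereas the authors' deposited table names that arm DMSO in its headers. All 4 samples were taken in exosome-free medium, and each was measured on 1 array in 1 colour (Cy5). Separate cultures are not stated for replicates. The 2 arrays of a group also hold the same values once sorted, as quantile normalization within the group would leave them. The p-values therefore measure only the spread left between these arrays, which may be technical. Such a step makes them too small.

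Deposited intensities, in arbitrary units on a linear scale, ran from 109 to 8435 on the camptothecin arrays and from 91.4 to 12998 on the untreated arrays, with medians of 170.3 on camptothecin and 158 on untreated arrays. The number of arrays limits the precision, and background readings were not analysed here. In bulk RNA, a change in the number of vesicles and a change in the RNA of each cannot be told apart. Of the hepatocyte miRNAs with an entry (4 of 5 listed) summed intensities were 734 and 709 on the camptothecin arrays and 619 and 596 on the untreated arrays. Of these 3 were called higher (limma, adjusted p under 0.05), where 35.1% of all entries were, namely miR-122-5p (0.39), miR-194-5p (0.27) and miR-192-5p (0.23), with log2 fold changes in brackets. With all 4 arrays quantile normalized together none of the 4 was called, where 6.88% of all entries were called higher and 6.04% lower. With an apparent factor per group divided out, described further on, 3 were called lower, where 89.1% of all entries were. Of the arms of miR-483, from the IGF2 gene of foetal liver and hepatoma, miR-483-3p (0.77) was called higher as deposited. miR-483-5p (-0.06) was not called, with both camptothecin arrays below both untreated ones. Under joint quantile normalization miR-483-3p (0.89) was called higher and miR-483-5p (0.028) was not called. With the factor divided out miR-483-3p (0.31) was still called higher, where 0.841% of all entries were, and miR-483-5p (-0.51) was called lower. Intensities of different probes do not give an order of abundance between miRNAs, so percentiles of level describe the brightness of a probe alone.

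Sequences could be read for 25 of the 29 members by exact name from RefSeq (GRCh38.p14). The arm of miR-134, miR-370, miR-494 and miR-668 is not given by the array, so none was assigned to them. The set printed first holds the 5 members with the largest changes past the test and the 3' arms that share a seed with one of them. Capitals mark the seed, bases 2 to 8, through which a miRNA mainly recognises its targets.
miR-382-3p: aAUCAUUCacggacaacacuu
miR-379-3p: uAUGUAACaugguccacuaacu
miR-411-3p: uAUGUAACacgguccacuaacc
miR-1185-1-3p: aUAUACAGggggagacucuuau
miR-1185-2-3p: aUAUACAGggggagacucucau
miR-337-3p: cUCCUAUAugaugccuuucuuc
miR-379-3p and miR-411-3p had the same seed and differed at 2 of 22 bases, U10C and U22C, counted from the 5′ end with miR-379-3p first. miR-1185-1-3p and miR-1185-2-3p, from a pair of neighbouring hairpins, differed at 1 of 22 bases, U20C, so that each probe may also capture the other miRNA, which was not tested. The second set holds the brightest members with a sequence, and the 2 members of the remaining shared seed, miR-654-5p and miR-541-3p.
miR-665: aCCAGGAGgcugaggccccu
miR-496: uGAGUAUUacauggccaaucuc
miR-485-3p: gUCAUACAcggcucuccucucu
miR-300: uAUACAAGggcagacucucucu
miR-654-5p: uGGUGGGCcgcagaacaugugc
miR-541-3p: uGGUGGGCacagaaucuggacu
No other entry of the array whose sequence could be read carried any of these 3 shared seeds. The seed of miR-770-5p was shared with a miRNA outside the list, miR-4712-5p.

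All 25 sequences lay on the plus strand of chromosome 14. miR-382-3p was at chr14:101054352-101054372, miR-379-3p at chr14:101022109-101022130, miR-411-3p at chr14:101023375-101023396, miR-1185-1-3p at chr14:101043029-101043050, miR-337-3p at chr14:100874553-100874574 and miR-665 at chr14:100875075-100875094. The hairpins of the 29 members spanned 213 kb. miR-770 lay within the span of MEG3, miR-431 and miR-432 within that of RTL1, on the opposite strand, and miR-370 within that of MEG8. The other hairpins lay outside the spans of these 3 genes.

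The comparison of camptothecin with untreated cells bears on how an anticancer drug alters the miRNAs in exosomes. With the values as deposited, 15 of the 29 members passed the test and were higher after camptothecin, by 1.10-fold to 1.36-fold, and 0 were lower. The test was limma with Benjamini-Hochberg adjustment over all entries, at an adjusted p under 0.05. An unadjusted p under 0.05 in limma was reached by 17 of the 29 members and by 743 of all 1308 entries. Across the whole array 35.1% of entries were called higher and 11.2% lower. The groups did not overlap for 22 members, each time with both camptothecin arrays above both untreated ones, against 59.4% of all entries in that direction and 19.3% in the other. The median log2 fold change was 0.15 over the members and 0.11 over all entries. The direction of these calls rested on the scaling of the arrays. Under joint quantile normalization of the 4 arrays 0 of the 15 passed (6.88% of all entries were called higher and 6.04% lower). With the factor that appears to have been applied to each group divided out, all 29 members were lower after camptothecin. So was most of the array: 28 of all 1308 entries were higher in that setting, and 89.1% were called lower.

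**Figure D1:**
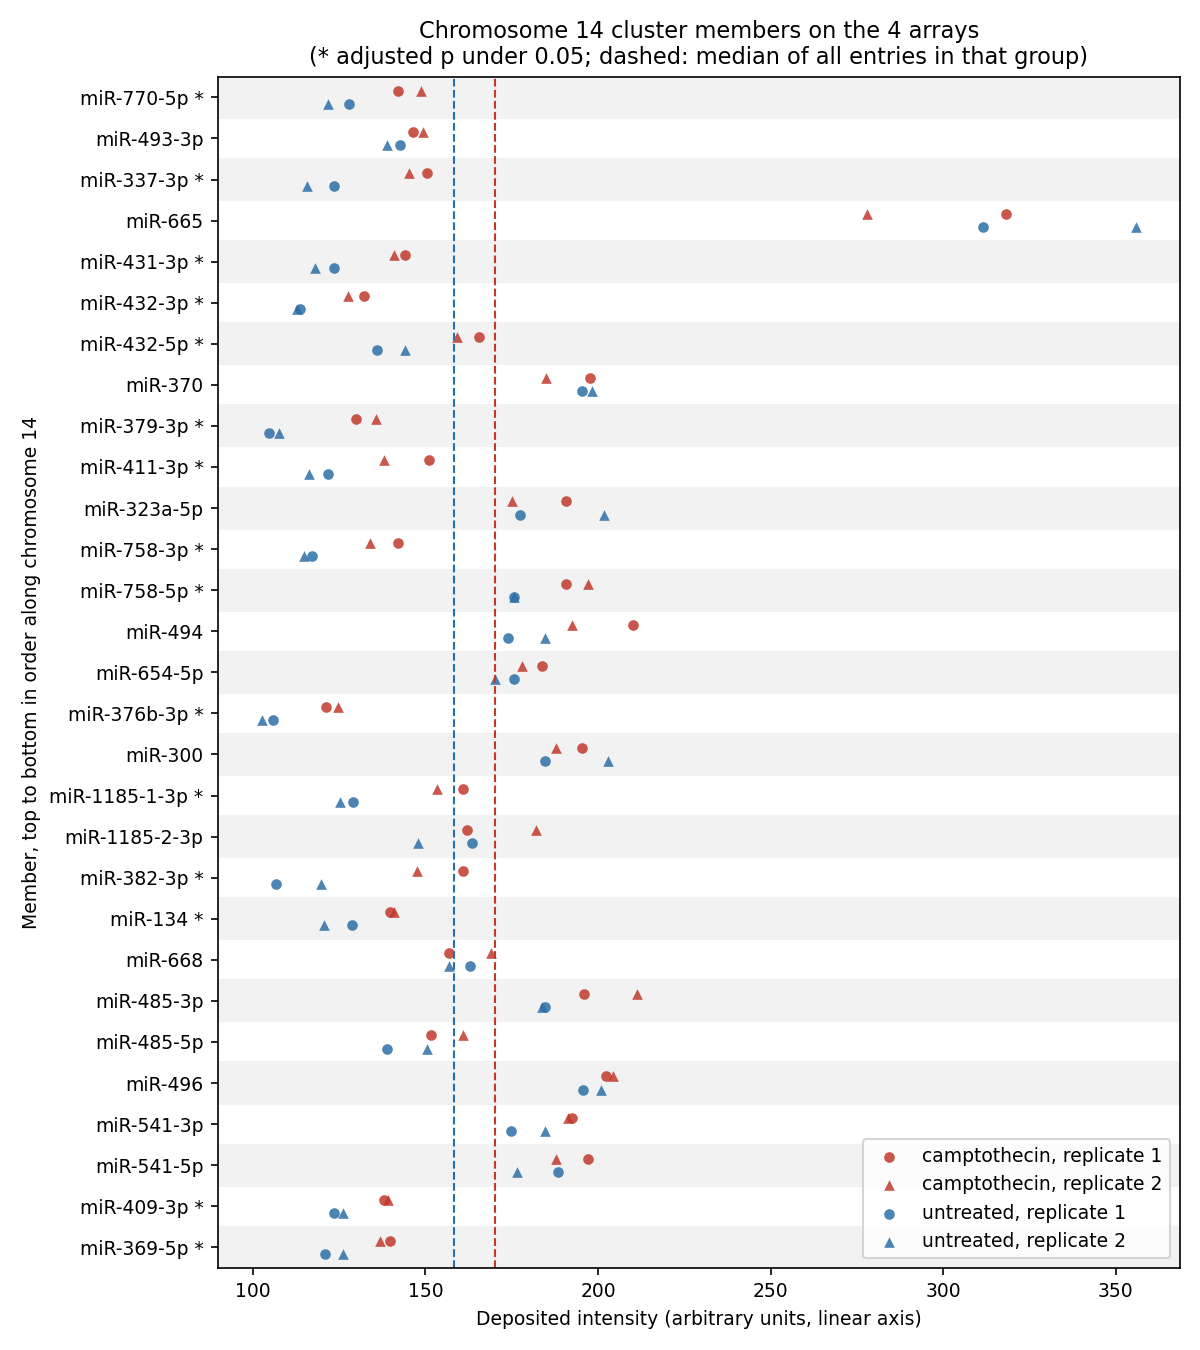
Deposited intensity (linear axis, arbitrary units) of the 29 members on the 2 camptothecin and 2 untreated arrays, in their order along chromosome 14. Camptothecin points lie to the right of untreated points by a similar small step for most dim members, while miR-665 is brightest, with overlapping groups.

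The change was largest for miR-382-3p, the less studied arm of the miR-382 hairpin. Its intensities were 160.9 and 147.5 on the camptothecin arrays, against 106.8 and 119.6 on the untreated arrays (log2 fold change 0.45 ± 0.0752 SE, adjusted p = 0.0109). Both camptothecin values lay above both untreated ones, although the replicates of each group differed by 0.13 (camptothecin) and 0.16 (untreated) on the log2 scale. Its place among the 1308 entries of each array, which no factor per array can alter, was at the percentiles 43.4 and 28.1 on the camptothecin arrays, against 3.25 and 13.3 on the untreated arrays. With all 4 arrays quantile normalized together the difference was 0.27 on the log2 scale and missed the threshold (adjusted p = 0.0841). It was the member that passed after normexp background correction (log2 fold change 0.56, adjusted p = 0.0475), where 8.1% of all entries were called higher and 6.5% lower.

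miR-379-3p and miR-411-3p, which share the seed AUGUAAC and come from neighbouring hairpins at the start of the larger block of the cluster, both passed. miR-379-3p, whose opposite arm miR-379-5p gives the block its name, read 129.9 and 135.8 on the camptothecin arrays, against 104.7 and 107.7 on the untreated arrays (log2 fold change 0.32 ± 0.0534 SE, adjusted p = 0.0107). miR-411-3p read 151.0 and 138.1 on the camptothecin arrays, against 121.8 and 116.2 on the untreated arrays (log2 fold change 0.28 ± 0.0613 SE, adjusted p = 0.0187). In both the groups were separate, and the gap was wider in miR-379-3p, the dimmer of the pair at the 3.21 percentile of level. With 20 of 22 bases in common, the probes may capture each other's miRNA, which was not tested. miR-758-3p, an arm of a miRNA that lowers the cholesterol transporter ABCA1, also shared 18 of 22 bases with each of these 2 but not their seed. It read 142.2 and 133.999 on the camptothecin arrays, against 117.1 and 114.9 on the untreated arrays (log2 fold change 0.25 ± 0.0523 SE, adjusted p = 0.0166).

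The 2 entries of the duplicated miR-1185 hairpin did not pass together, although their mature sequences differ by U20C alone. miR-1185-1-3p read 160.9 and 153.3 on the camptothecin arrays, against 129.03 and 125.2 on the untreated arrays (log2 fold change 0.31 ± 0.0476 SE, adjusted p = 0.00890). miR-1185-2-3p read 162.1 and 182.0 on the camptothecin arrays, against 163.6 and 147.8 on the untreated arrays (log2 fold change 0.14 ± 0.0771 SE, adjusted p = 0.169). The groups were separate for the first and overlapped for the second. The log2 ratio of miR-1185-1-3p over miR-1185-2-3p was -0.011 and -0.25 on the camptothecin arrays, against -0.34 and -0.24 on the untreated arrays, which overlap, so a difference between the 2 in their response was not shown. An exact permutation test of 2 arrays against 2 cannot give a two-sided p below 0.333.

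The remaining shared seed, GGUGGGC, gave no call. miR-654-5p read 183.7 and 177.9 on the camptothecin arrays, against 175.6 and 170.0 on the untreated arrays (log2 fold change 0.07 ± 0.0441 SE, adjusted p = 0.256). miR-541-3p read 192.5 and 191.3 on the camptothecin arrays, against 174.7 and 184.6 on the untreated arrays (log2 fold change 0.10 ± 0.0464 SE, adjusted p = 0.136). Both had separate groups, with a gap below the wider of the 2 spreads within a group, and outside the seed and the first base the sequences are unlike, with 11 of 22 positions different. miR-770-5p and miR-4712-5p, which share the seed CCAGUAC, had log2 fold changes of 0.22 and 0.23 as deposited and of 0.042 and 0.066 under joint quantile normalization.

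By position, the intron of MEG3 gave miR-770-5p, with 142.2 and 148.6 on the camptothecin arrays, against 127.7 and 121.8 on the untreated arrays (log2 fold change 0.22 ± 0.0508 SE, adjusted p = 0.0209). In the region around RTL1, 4 of 7 entries were called, all of them higher (35.1% of all entries), and the median log2 fold change was 0.20. Under joint quantile normalization none of the 7 was called and the median was -0.019. The 3 entries antisense to RTL1 were all among the 4 called as deposited. miR-431-3p, whose hairpin in mice acts in muscle satellite cells, read 143.9 and 141.0 on the camptothecin arrays, against 123.5 and 117.9 on the untreated arrays (log2 fold change 0.24 ± 0.0484 SE, adjusted p = 0.0158). The arms of miR-432 had log2 fold changes of 0.20 (3p) and 0.22 (5p), and in each the groups were separate. miR-432-3p read 132.2 and 127.6 on the camptothecin arrays, against 113.6 and 112.8 on the untreated arrays, and its adjusted p was 0.0257. miR-432-5p read 165.6 and 159.2 on the camptothecin arrays, against 135.9 and 143.98 on the untreated arrays, and its adjusted p was 0.0213. These 3 log2 fold changes became 0.048, -0.019 and 0.088 under joint quantile normalization, for miR-431-3p, miR-432-3p and miR-432-5p in that order, and did not pass.

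Of the other 4 entries of the RTL1 region, 1 passed. miR-337-3p read 150.4 and 145.1 on the camptothecin arrays, against 123.5 and 115.8 on the untreated arrays (log2 fold change 0.31 ± 0.0532 SE, adjusted p = 0.0118). miR-493-3p had separate groups but did not pass, with 146.3 and 149.2 on the camptothecin arrays, against 142.7 and 138.9 on the untreated arrays (log2 fold change 0.070, adjusted p = 0.215). miR-370, a miRNA reported to be low in hepatocellular carcinoma, read 197.8 and 184.9 on the camptothecin arrays, against 195.2 and 198.2 on the untreated arrays (log2 fold change -0.041, adjusted p = 0.524), and its groups overlapped. miR-665, the brightest member at the 81.9 percentile of level, had the lowest fold change of the list. It read 318.3 and 277.9 on the camptothecin arrays, against 311.5 and 355.9 on the untreated arrays (log2 fold change -0.16 ± 0.0940 SE, adjusted p = 0.193), with the widest spread between replicates of all members in both groups, 0.20 on camptothecin and 0.19 on untreated arrays on the log2 scale.

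In the larger block, which here ran from miR-379 to miR-369, 10 of 21 entries were called, all of them higher (35.1% of all entries), and the median log2 fold change was 0.14, against 0.11 over all entries. After joint quantile normalization none of the 21 was called and the median was 0.0040. miR-376b-3p, of a family known for editing of its seed, was the dimmest member, at the 1.45 percentile. It read 121.1 and 124.6 on the camptothecin arrays, against 106.0 and 102.5 on the untreated arrays (log2 fold change 0.24 ± 0.0548 SE, adjusted p = 0.0211). miR-134, known in rodent neurons as a regulator of dendritic spines, read 139.9 and 141.0 on the camptothecin arrays, against 128.6 and 120.5 on the untreated arrays (log2 fold change 0.17 ± 0.0514 SE, adjusted p = 0.0398). The 2 entries at the far end of the block were close to these. miR-409-3p read 138.1 and 139.3 on the camptothecin arrays, against 123.5 and 126.0 on the untreated arrays (log2 fold change 0.15 ± 0.0442 SE, adjusted p = 0.0379). miR-369-5p read 139.9 and 136.9 on the camptothecin arrays, against 120.9 and 126.0 on the untreated arrays (log2 fold change 0.16 ± 0.0478 SE, adjusted p = 0.0382). All 4 had separate groups, and all 4 turned sign under joint quantile normalization, to -0.0031 for miR-376b-3p, -0.015 for miR-134, -0.041 for miR-409-3p and -0.029 for miR-369-5p.

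Besides miR-432, 3 hairpins had an entry for both arms. For miR-758 both arms were called higher: miR-758-5p read 190.8 and 197.2 on the camptothecin arrays, against 175.6 and 175.6 on the untreated arrays (log2 fold change 0.14 ± 0.0423 SE, adjusted p = 0.0398), beside the 3p arm above. For miR-485, which acts on synapses in rodent neurons, neither arm passed. miR-485-3p read 196.0 and 211.2 on the camptothecin arrays, against 184.6 and 183.7 on the untreated arrays, and miR-485-5p read 151.6 and 160.9 on the camptothecin arrays, against 138.9 and 150.4 on the untreated arrays. Their log2 fold changes were 0.14 (adjusted p = 0.0670) and 0.11 (adjusted p = 0.159), with separate groups in both. For miR-541 neither arm passed: miR-541-5p read 197.2 and 187.8 on the camptothecin arrays, against 188.4 and 176.5 on the untreated arrays, with overlapping groups (log2 fold change 0.078, adjusted p = 0.260). As deposited no member was called lower, so the arms of a hairpin could not be called in opposite directions. Differences between arms were not tested.

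Of the brighter members of the block, miR-758-5p was the one called. miR-494 read 210.1 and 192.5 on the camptothecin arrays, against 173.9 and 184.6 on the untreated arrays (log2 fold change 0.17 ± 0.0608 SE, adjusted p = 0.0695). miR-496 read 202.5 and 204.2 on the camptothecin arrays, against 195.7 and 200.8 on the untreated arrays (log2 fold change 0.037, adjusted p = 0.499). miR-300 read 195.4 and 187.8 on the camptothecin arrays, against 184.6 and 202.9 on the untreated arrays (log2 fold change -0.015, adjusted p = 0.851). The groups were separate for the first 2 and overlapped for miR-300. miR-323a-5p and miR-668, at log2 fold changes of -0.050 and 0.028, had overlapping groups as well.

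**Figure D2:**
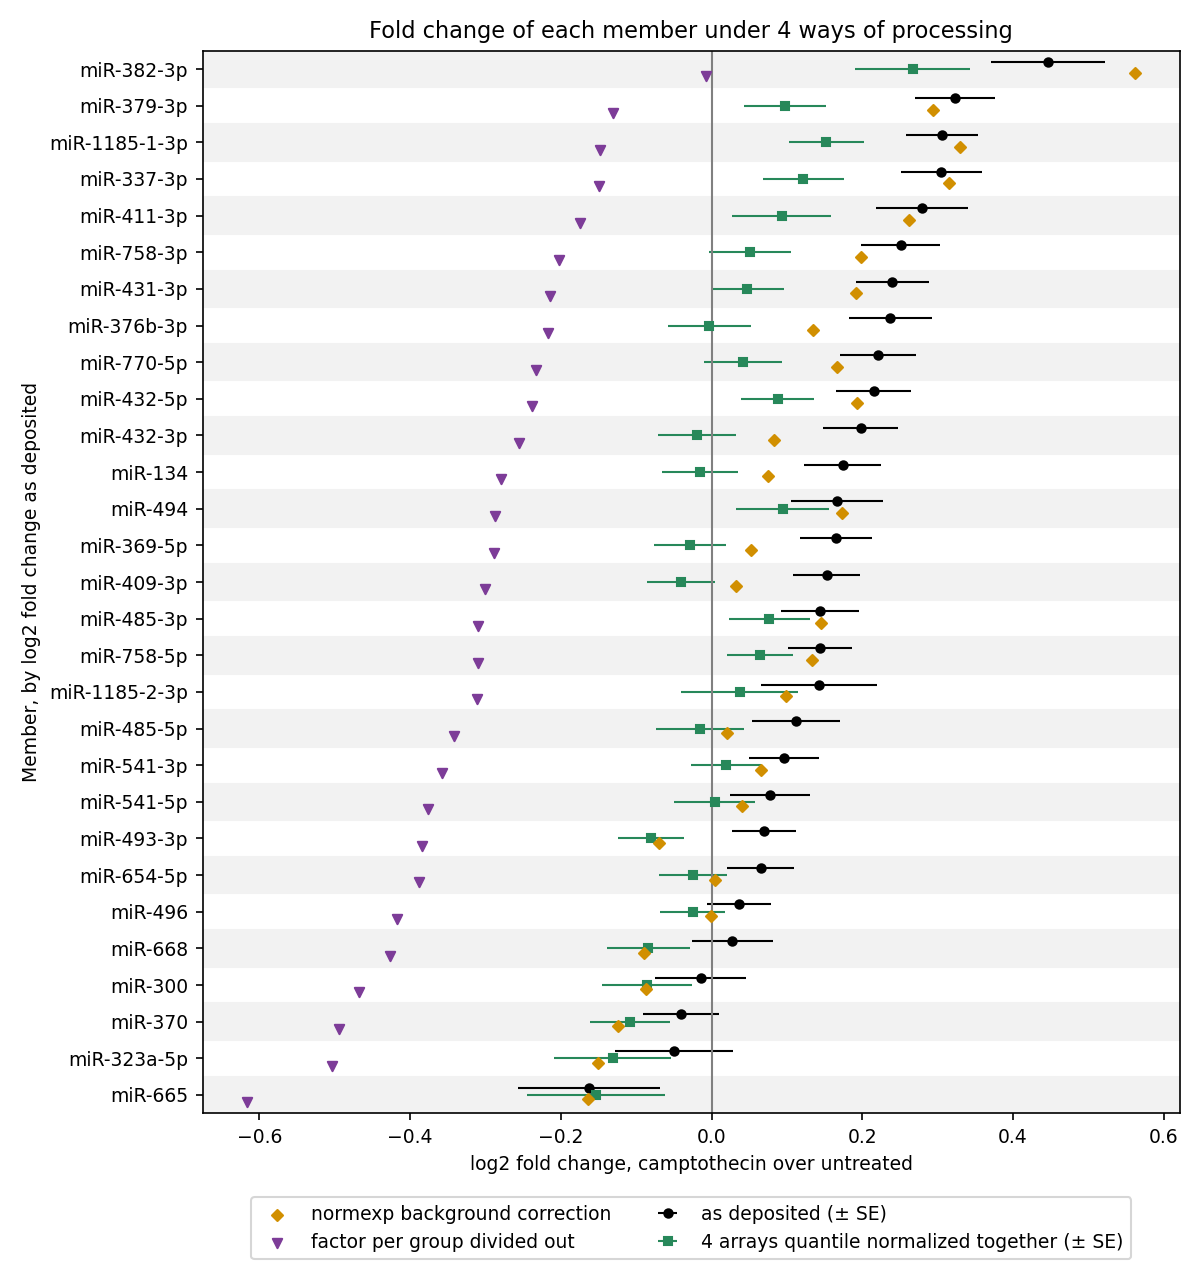
log2 fold change of camptothecin over untreated for the 29 members as deposited and after 3 other ways of processing, with standard errors (SE) for 2 of them. As deposited 25 members lie above 0, under joint quantile normalization 15 do, and with the factor per group divided out none does. Of all 1308 entries, which are not drawn here, 960, 615 and 28 lay above 0 in the same order.

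Dimmer members tended to have larger fold changes, as did dimmer entries of the array in general. The floor itself differed: the lowest value was 108.8 on the camptothecin arrays and 91.4 on the untreated arrays. The 12 members among the dimmest 327 entries lay not far above it, with median intensities of 139.6 on camptothecin and 119.3 on untreated arrays. The part of this floor in their fold changes was not tested. Among the dimmest 327 entries of the array, 12 of 12 members were called higher, beside 61.5% of those entries. Among the next 327 it was 2 of 6 members (39.1% of entries), among the third 327 it was 1 of 10 (21.1%) and among the brightest 327 it was 0 of 1 (18.7%). Median log2 fold changes in the first 3 of these bins were 0.24, 0.13 and 0.072 for members and 0.21, 0.13 and 0.062 for all entries. Over the 29 members Spearman's rho between level and log2 fold change was -0.76, and over all 1308 entries it was -0.54. These are descriptions across probes of the same 4 arrays, not independent replicates. With all 4 arrays quantile normalized together the values were -0.35 and -0.10.

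**Figure D3:**
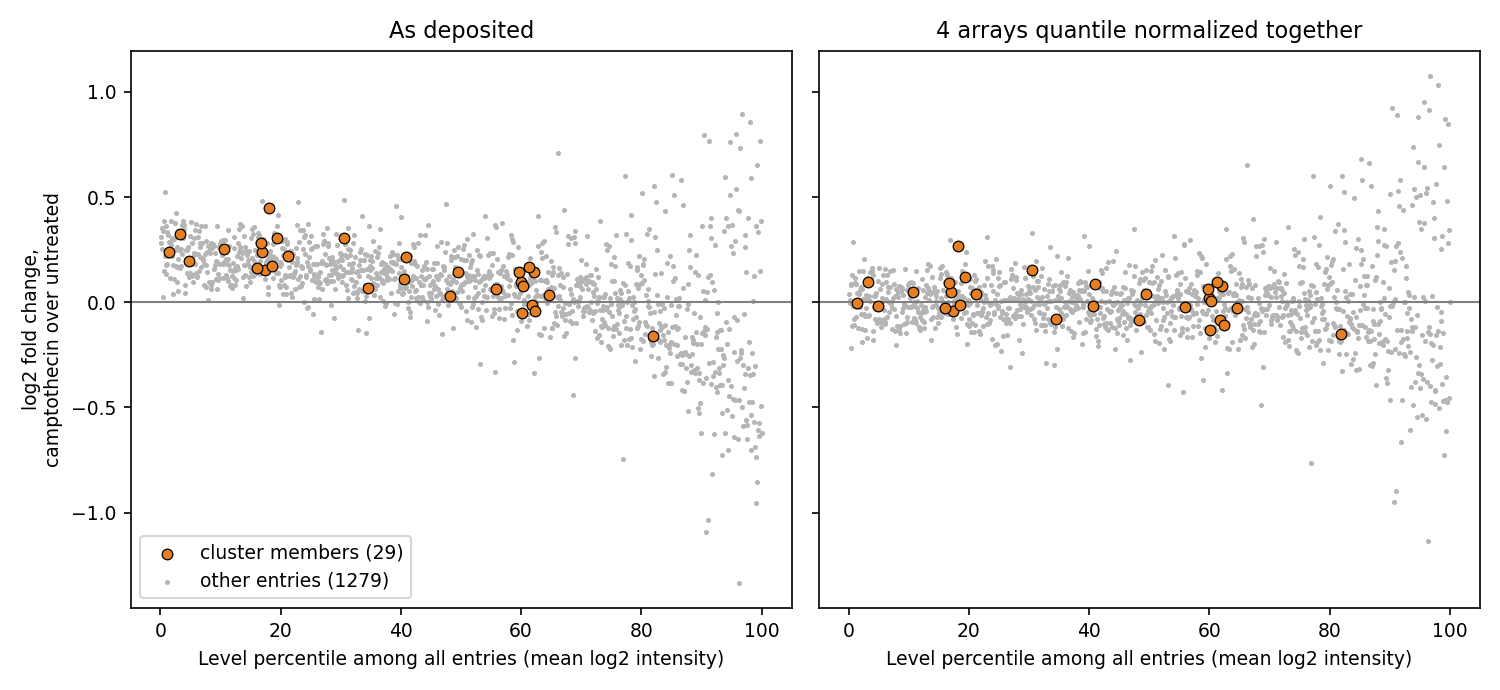
log2 fold change of camptothecin over untreated against level percentile for the 29 members and all other entries, as deposited (left) and under joint quantile normalization (right). Members follow the slope of the dim entries on the left, 12 of them among the dimmest 327 entries, and lie around 0 on the right.

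The deposited values carry a trace of their scaling. Every value up to 300 on a camptothecin array was a whole multiple of 0.585, and on an untreated array of 0.427, within 0.01. Read as means of 2 whole scanner values times a factor, this gives factors of 1.17 for camptothecin and 0.854 for untreated arrays, which differ by 0.45 on the log2 scale. On that reading miR-382-3p had unscaled values of 137.5 and 126 on the camptothecin arrays, against 125 and 140.0 on the untreated arrays, which overlap. miR-379-3p had 111 and 116 on the camptothecin arrays, against 122.5 and 126 on the untreated arrays. In these unscaled values 27 of 29 members were called lower and 0 higher, with a median log2 fold change of -0.30. Of all entries 89.1% were called lower and 0.841% higher, with a median of -0.34. The members with no call were miR-382-3p (log2 fold change -0.0072) and miR-379-3p (-0.13).

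Relative to the median of all entries, the members' median lay higher by 0.041 as deposited and by 0.013 under joint quantile normalization. Settings that only shift whole arrays cannot change the first of these values. By rank within each array, which no factor changes, 8 of 29 members lay higher on both camptothecin arrays than on both untreated ones, against 27.1% of all entries, and 5 lay lower, against 31.4%. The 8 were miR-382-3p, miR-337-3p, miR-379-3p, miR-1185-1-3p, miR-431-3p, miR-432-5p, miR-485-3p and miR-758-5p, and the 5 were miR-370, miR-409-3p, miR-493-3p, miR-496 and miR-668. With each array centred on its median, 4 members were called higher and 0 lower (9.02% and 16.2% of all entries), namely miR-382-3p (log2 fold change 0.34), miR-337-3p and miR-1185-1-3p (0.20 each) and miR-379-3p (0.22). Without any 1 of the 4 arrays, camptothecin replicate 1 or 2 or untreated replicate 1 or 2, 0 of the 29 members were called, and 11 to 13 had an unadjusted p under 0.05. Of all entries, 2.22% were then called higher and 3.21% lower without camptothecin replicate 1, 1.15% and 2.22% without camptothecin replicate 2, and 0% and 0.0765% without either untreated array.

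Members with fewer G and C bases tended to have larger fold changes. Over the 25 members with a sequence, the share of G and C ran from 31.8% in miR-376b-3p to 72.7% in miR-323a-5p, and its Pearson's r with the log2 fold change was -0.63 (Spearman's rho -0.53). Over the 1105 entries of the array with a sequence r was -0.41 (rho -0.36). The 14 members called higher had a median of 47.7% and the 11 not called one of 54.5%. miR-665 and miR-323a-5p, the richest in G and C at 70.0% and 72.7%, had the 2 lowest fold changes. Under joint quantile normalization rho between the share of G and C and the log2 fold change was -0.48 over the members and -0.26 over the 1105 entries. Level moved with base composition (rho 0.35 over the members), the points share their arrays, and the part of either in the fold changes was not tested.

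**Figure D4:**
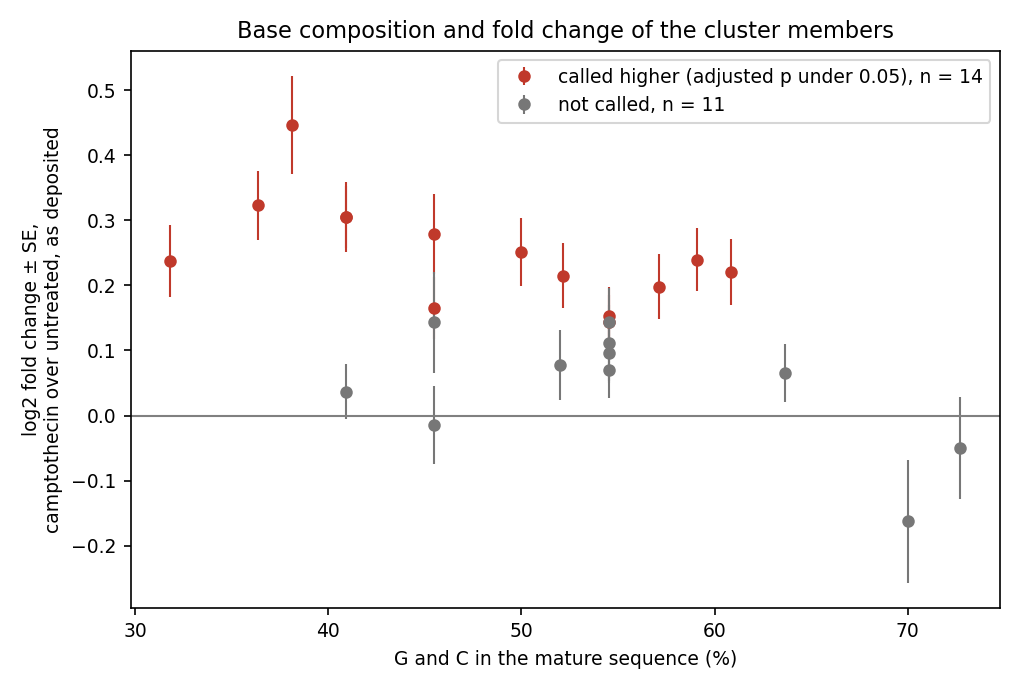
log2 fold change as deposited (± SE) against the share of G and C in the mature sequence, for the 14 members called higher and the 11 not called. Fold changes run from 0.45 for miR-382-3p at 38.1% to -0.16 for miR-665 at 70.0%, and some points with the same composition overlap.

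Of 2 further entries from the domain, 1 was called higher, where 35.1% of all entries were. miR-1247-5p, at the end of the domain beside DIO3, averaged 142.8 ± 4.97 on the camptothecin arrays and 122.6 ± 4.23 on the untreated arrays (SD, n = 2 each; log2 fold change 0.22, adjusted p = 0.0228 in limma). miR-2392, a bright entry upstream of MEG3, was not called (log2 fold change -0.14, adjusted p = 0.0698). Of 5 entries from 14q32 outside the imprinted domain, 2 were called higher (35.1% of all entries), miR-342-3p (0.36) and miR-345-3p (0.15). Under joint quantile normalization 0 of the 5 were called, and their median log2 fold change was -0.058. With the factor per group divided out 4 of the 5 were called lower, where 89.1% of all entries were. In the imprinted cluster of chromosome 19, which is expressed in placenta from the paternal chromosome, 3 of 10 entries were called, all of them higher, a share near the 35.1% of all entries. The median log2 fold change there was 0.13, beside 15 of 29 called and 0.15 in the chromosome 14 cluster. Both camptothecin arrays lay above both untreated ones in 7 of the 10 (59.4% of all entries) and below them in 2 (19.3%). With joint quantile normalization none was called and the median was -0.042. The 3 called as deposited were miR-516b-5p (0.22), miR-520d-5p (0.21) and miR-518c-5p (0.17). A difference between the clusters was not tested.

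Entries typical of other cells are given beside the 35.1% of all entries called higher as deposited and the 6.88% under joint quantile normalization. Of the neuronal miRNAs with an entry (3 of those listed, miR-128, miR-129-5p and miR-138-5p) 2 were called higher, with summed intensities of 406 and 415 on the camptothecin arrays and 359 and 369.6 on the untreated arrays. They were miR-128 (0.30) and miR-138-5p (0.19), with log2 fold changes in brackets. Of 6 miRNAs of muscle and fibroblasts 5 were called higher, with sums of 1459.9 and 1435 on the camptothecin arrays and 1141 and 1182 on the untreated arrays. The largest log2 fold changes were those of miR-206 (0.46), miR-145-5p (0.36) and miR-1 (0.33). These 3 were also called higher under joint quantile normalization, where no neuronal or blood cell entry was. With the factor per group divided out they were 0.010, -0.090 and -0.13 in that order. In that setting 3 of the 6 were called lower and 0 higher, where 89.1% of all entries were called lower. Of 3 blood cell miRNAs 1 was called higher, miR-150-5p (0.32), with sums of 598 and 665.3 on the camptothecin arrays and 582 and 580.2 on the untreated arrays. The summed intensity of the 29 members was 4909.97 and 4821 on the camptothecin arrays and 4428 and 4499 on the untreated arrays. In all these sums each entry carries at least the lowest value of its array, 108.8 on camptothecin and 91.4 on untreated arrays. A higher sum therefore does not by itself show more RNA. The part of RNA typical of other cells in the result for the cluster was not tested.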

How the data were processed

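Per the labels' protocols, exosomes were isolated with a kit from conditioned medium, and small RNA was reverse-transcribed, amplified and labelled with Cy5. The authors deposited 1 intensity per probe and array. Scanner and normalization: not given in the sources used here. Sorted, the values of both arrays of a group are identical, as quantile normalization within the group would leave them. Such a step removes part of the replicate spread and makes p-values too small. Per the file headers a second deposited table gives log2 ratios, which equal the differences of log2 intensities within 5e-10. It was used for this check and for names, and its own 4 columns of intensities, 1 for each array, were not used.

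Log2 intensities without pseudocount went into limma 3.58.1 (R 4.3.3; lmFit, then eBayes with an intensity trend), tested on both sides with Benjamini-Hochberg adjustment over all 1308 entries at 0.05. Fold changes are camptothecin over untreated. Alternatives were other scalings, normexp (offset 50), pseudocounts of 16 and 64, filters on dim entries, other variance settings, a replicate block and leaving out each array. Every member is named, and values per array are given for members past the test, the 5 brightest and those with both arms. From other lists up to 3 entries past the test were named, and further entries after their values were seen. Members and lists were chosen with earlier results of these data known. Sequences were matched by exact name to RefSeq (GRCh38.p14), which held 1105 of the entries. On simulated data with 1308 entries, of which 200 changed, 20 runs of the fit for camptothecin against untreated found 84.8% of changes of 1.2-fold and 99.9% of 1.5-fold changes, and 3.26% of calls were false. The simulated noise was drawn from the deposited differences between replicates, and no factor per group was simulated. These rates therefore leave out errors from the scaling and from replicate spread removed before deposit, and are not error rates of the calls above.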

Additional observations from a re-analysis of the deposited data

How the results depend on the processing

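All alternatives were fixed with earlier results of these data known. Members called were 15 higher and 0 lower as deposited. The higher calls became 0 under joint quantile normalization, 4 with each array centred on its median, 25 with the 75th percentile taken over entries at or above the median level, 0 (with 27 lower) with the factor per group divided out, 1 after normexp correction, 3 with the dimmest 327 entries left out (17 members tested), 1 among entries brighter than the median (11 tested), and 0 without any 1 array. The members' median log2 fold change of 0.15 was 0.0040, 0.047, 0.28, -0.30, 0.083, 0.078 and 0.065 in the order of these settings, 0.11 with a pseudocount of 64, and 0.14 to 0.17 with an array left out. Calls over all entries, 459 higher and 147 lower as deposited, were 90 and 79, 118 and 212, 892 and 83, 11 and 1166, and 106 and 85 in that order, with 222 and 125 higher under the 2 filters on dim entries, and ran from 0 to 29 higher and 1 to 42 lower with an array left out. The filters on dim entries tested fewer entries, and leaving out an array left 3 arrays in the fit; for the other changes the cause was not tested beyond the scaling itself. All 15 calls were kept with robust variance, without the intensity trend and with a pseudocount of 16 or 64. Log2 fold changes that turned sign under quantile normalization were those of miR-668 -0.084, miR-493-3p -0.080, miR-409-3p -0.041, miR-369-5p -0.029, miR-496 -0.025, miR-654-5p -0.025, miR-432-3p -0.019, miR-485-5p -0.016, miR-134 -0.015 and miR-376b-3p -0.0031; under centring, miR-668 -0.078, miR-496 -0.069, miR-654-5p -0.040, miR-493-3p -0.035, miR-541-5p -0.027 and miR-541-3p -0.0094; with the other 75th percentile, miR-323a-5p 0.075, miR-370 0.084 and miR-300 0.11; after normexp, miR-668 -0.089, miR-493-3p -0.070 and miR-496 -0.00021. With the factor divided out, they were miR-668 -0.43, miR-496 -0.42, miR-654-5p -0.39, miR-493-3p -0.38, miR-541-5p -0.38, miR-541-3p -0.36, miR-485-5p -0.34, miR-1185-2-3p -0.31, miR-758-5p -0.31, miR-485-3p -0.31, miR-409-3p -0.30, miR-369-5p -0.29, miR-494 -0.29, miR-134 -0.28, miR-432-3p -0.26, miR-432-5p -0.24, miR-770-5p -0.23, miR-376b-3p -0.22, miR-431-3p -0.21, miR-758-3p -0.20, miR-411-3p -0.17, miR-337-3p -0.15, miR-1185-1-3p -0.15, miR-379-3p -0.13 and miR-382-3p -0.0072. Without camptothecin replicate 2 the sign turned for miR-668 -0.027, miR-370 0.0076, miR-323a-5p 0.013 and miR-300 0.014, and without untreated replicate 2 for miR-323a-5p 0.043 and miR-300 0.054. With 1 array left out in turn, these ran from -0.027 to 0.082 for miR-668, from -0.083 to 0.054 for miR-300, from -0.089 to 0.0076 for miR-370 and from -0.14 to 0.043 for miR-323a-5p. With the replicate number as a block, 12 members were called higher and 0 lower (33% and 9.02% of entries). The 3 lost were miR-409-3p, miR-369-5p and miR-758-5p, at adjusted p from 0.0513 to 0.0683 in limma. The numbers share no stated batch. The differences between replicates 1 and 2 of the 2 groups correlated at -0.072 over all entries and at -0.46 over the members. The number was therefore not taken as a pairing. Background readings were not analysed here, which limits what the dim members can show.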
